A study of Mus musculus with 16 samples.

Results

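Histone cluster genes were followed across all 16 arrays of a microarray study of mouse embryonic fibroblasts (MEFs) treated with the growth factor BMP2, with Adriamycin (ADR, doxorubicin) or with both. Members were all genes whose symbol starts with H1f, H2ac, H2bc, H3c or H4c and a digit, with a probe detected on at least 2 arrays, and the brightest such probe stood for its gene. Of 50 such genes with 59 probes on the array, 36 genes with 42 probes met the rule, among 9405 named genes detected on at least 2 arrays. They were 1 of 8 linker H1 genes, 11 of 12 H2A genes, 11 of 13 H2B genes, 4 of 7 H3 genes and 9 of 10 H4 genes. H4c14, detected on 2 arrays, and H2ac6, detected on 4, lay just inside the rule, while H2bc1, H3c3 and H4c3, each detected on 1 array, lay just outside it. The linker genes H1f1, H1f3, H1f4, H1f5, H1f6, H1f7 and H1f8 were detected on no array, which left H1f2 as the linker member, and H1f0 was not analysed here.

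Histones package DNA: a pair each of H2A, H2B, H3 and H4 molecules forms the nucleosome core, and linker H1 binds where the DNA enters and leaves. The clustered genes are intronless, are transcribed mostly in S phase, and give mRNAs that usually end in a conserved stem-loop in place of a poly(A) tail, with polyadenylated forms described in differentiating and stressed cells. The labels give only the manufacturer's standard labelling protocol, and whether labelling was primed on poly(A) tails is not given in the sources used here. Genes of a class encode nearly the same protein, so signals of near-identical copies cannot be told apart with certainty, and no probe sequence was analysed here.

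Each condition had 1 array, so no condition was repeated and no spread between replicate cultures was measured. MEFs labelled as RasV12/E1A-transformed gave 8 arrays, either Smad1f/f (with the pbabe vector) or Smad1-/- (with cre). For each genotype there was an untreated array at 0 h, and 12 h arrays for BMP2, ADR and the combination. The other 8 arrays were labelled as non-transformed primary MEFs at passage 2, untreated or given the same agents, at 8 h and at 16 h. BMP2 is listed at 100 ng/ml in the titles but at 50 ng/ml in the design text, and ADR at 0.3 uM in the first and 1 ug/ml in the second, which leaves both doses uncertain. Detection ranged from 40.1% to 46.8% of the 24613 probes, and precision is limited by how few arrays there were.

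Several marker genes went against the labels, and every group below is named only by its label. Col1a1 and Thy1, which mark fibroblasts, had log2 signals of 12.57 to 13.54 and of 12.78 to 13.32 on the arrays labelled transformed, and lay at 4.49 to 5.14 on the arrays labelled primary, where neither was detected. Krt18, a keratin of simple epithelia, lay at 5.04 to 5.58 on the arrays labelled transformed and at 10.63 to 12.05 on those labelled primary. Other epithelial markers did not all follow it. Of 5 tested, 2 were higher and 2 lower on the Smad1f/f arrays against the mean of the arrays labelled primary. Over all genes and probes 34.1% were higher and 43.8% lower (77.9% either way), so this count lay near the background. Vim, on the fibroblast list, read 14.59 to 14.74 on the arrays labelled transformed and 13.97 to 14.45 on those labelled primary. Smad1 signal differed by 0.0093 ± 0.13 (log2, SE) between the genotypes, with a limma adjusted p of 0.993. Which part of the transcript its probe reads was not analysed here. On the arrays labelled primary, Cdkn1a and Mdm2, targets of p53 after DNA damage, rose with BMP2 by 0.98 ± 0.11 and 0.72 ± 0.18 and had changes of 0.057 ± 0.11 and 0.00012 ± 0.18 with ADR. Id1 and Id3, targets of BMP signalling, rose there with ADR by 1.18 ± 0.097 and 0.76 ± 0.080, and Id1 fell by 0.52 with BMP2. In the set labelled transformed, Id3 had -1.64 ± 0.26 and Mdm2 0.57 ± 0.10 with BMP2 against untreated, both past the threshold. With ADR against untreated Mdm2 had -0.042 ± 0.10 and Cdkn1a -0.16 ± 0.10, and neither passed. With ADR added to BMP2 both went with the ADR label. Mdm2 read 12.10 and 12.12 with BMP2 and 13.15 and 12.97 with both agents, and Cdkn1a 12.17, 12.22, 12.74 and 12.95 in that order. Id1 read 8.81 untreated, 7.90 with ADR, 8.79 with BMP2 and 9.21 with both on Smad1f/f. On Smad1-/- it read 10.29, 10.45, 9.61 and 10.16 in the same order. The main results below rest on these arrays, so their agents too are named only as labelled. Cdkn1a, Mdm2, Id1, Id3 and Krt18 were picked as checks after their values were seen. The deposited signals of the Smad1-/- BMP2 array repeated those of the Smad1f/f BMP2 array, so that array was recovered from the authors' log2 table, and the main counts are also given without it.

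On the arrays labelled transformed, most histone cluster genes rose when ADR was added to BMP2, and a set of H2A genes fell. With 2 arrays on each side, all at 12 h, 28 of the 35 tested members rose and 6 fell at a limma adjusted p under 0.05, while 18.3% of all 10275 genes and probes rose and 17.5% fell (35.8% either way). The median change of the members was 0.92 on the log2 scale, beside -0.022 over all genes and probes tested. By class, the linker H1f2 rose, 11 of 11 H2B genes rose, 4 of 4 H3 genes rose, 7 of 8 H4 genes rose, and the 11 H2A genes divided into 5 that rose and 6 that fell. H4c14 was detected on no array of this set and was not tested. Without the recovered array, 28 members rose and 5 fell. With median scaling the counts were 28 and 5, and the share of higher calls among all calls moved from 51.2% to 70.6%. At a log2 change of at least 1, 12 members remained as rising and 4 as falling. Here and below, the share of all genes and probes at that size was not counted.

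**Figure D1:**
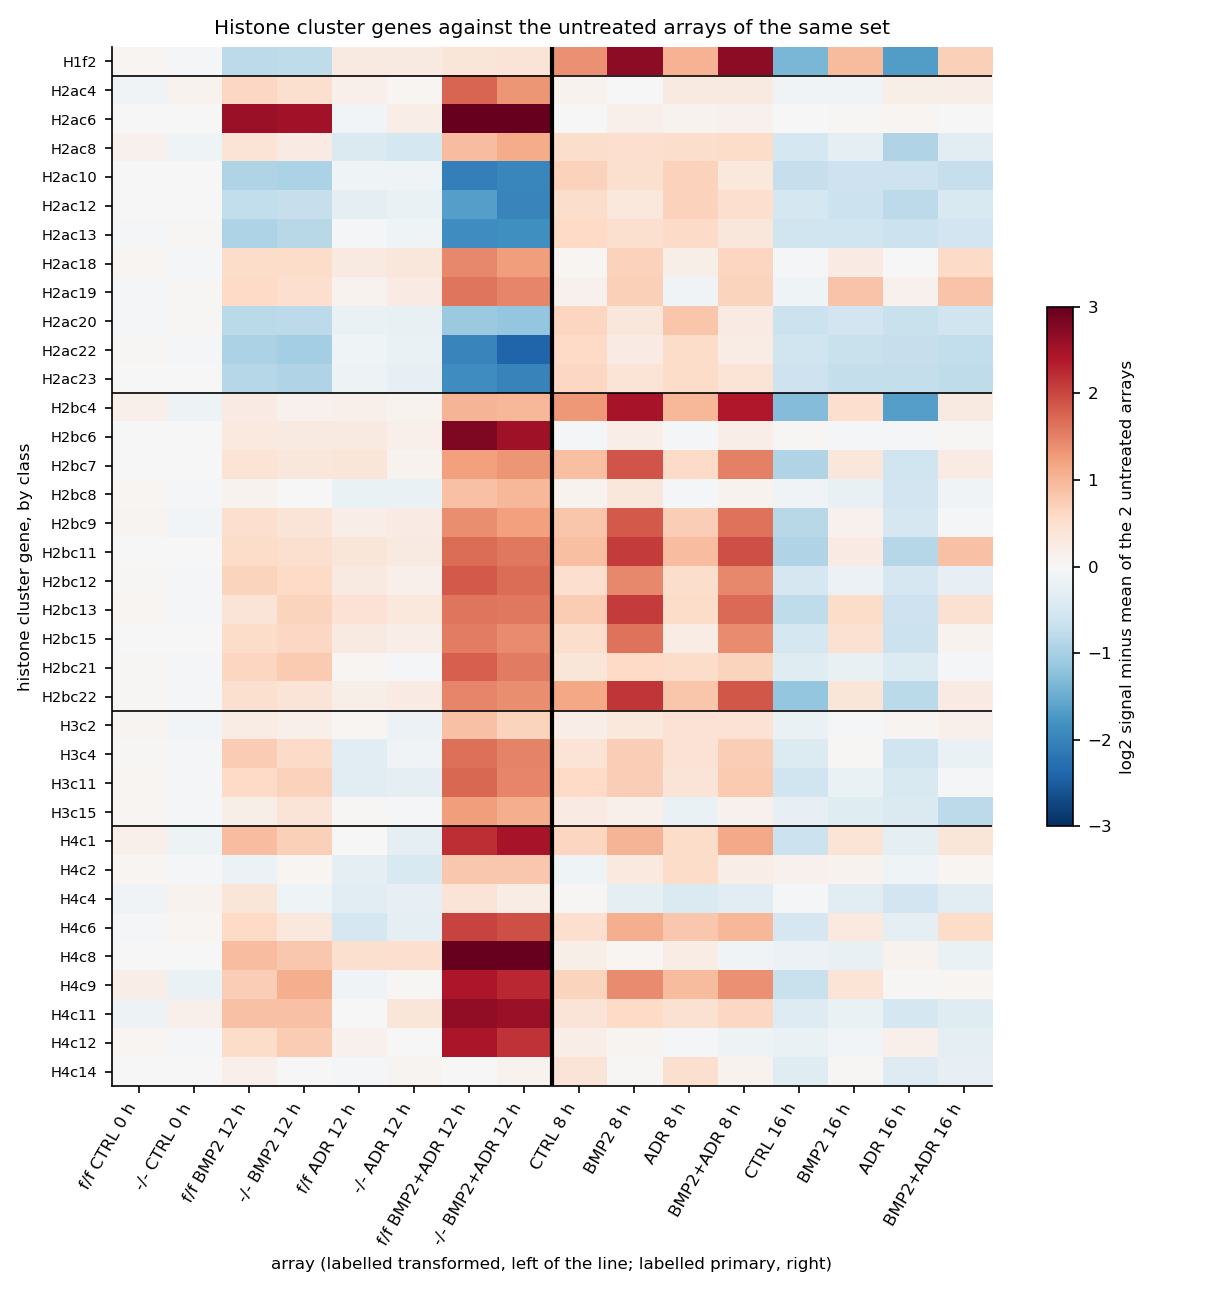
Log2 signal of the 36 histone cluster genes (rows, by class) on the 16 arrays (columns), minus the mean of the 2 untreated arrays of the same set, red higher and blue lower, with the colour scale ending at 3 in both directions. On the left, the 2 columns with both agents stand above the untreated mean in most rows and below it in the 6 H2A genes that fell; on the right, the 8 h columns lie above the 16 h columns in most rows, since the reference there averages both times.

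The H4 genes, which encode the least variable of the core histones, had the highest median change with ADR added to BMP2, at 1.52 over 8 tested. H4c8 read 7.18 and 7.17 on the untreated Smad1f/f and Smad1-/- arrays, 7.66 and 7.68 with ADR, 8.09 and 7.98 with BMP2, and 10.18 and 10.16 with both agents. The pair of arrays with both agents lay apart from the other 6, and the change on BMP2 was 2.13 ± 0.097 (adjusted p = 2.8e-05). H4c1 read 8.10 and 7.79 untreated, 7.95 and 7.65 with ADR, 8.88 and 8.66 with BMP2, and 10.16 and 10.41 with both. It rose by 1.52 ± 0.15 (adjusted p = 0.00047), also with no overlap between the sides. H4c11, H4c12, H4c6 and H4c9 rose by 1.74, 1.65, 1.52 and 1.44, and H4c2 by 0.88. H4c4 was the member that did not pass: its signals were 5.95 and 5.46 with BMP2 and 5.97 and 5.80 with both, sides that overlap, and its change was 0.18 ± 0.17 (adjusted p = 0.43), or -0.083 without the recovered array.

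The H2B genes, whose product pairs with H2A, moved closely together except for H2bc6. H2bc6 was not detected on the untreated arrays, at 5.13 on both, and read 5.39 and 5.29 with ADR, 5.43 and 5.41 with BMP2, and 7.93 and 7.68 with both. It rose by 2.38 ± 0.11 (adjusted p = 2.8e-05), a size that depends on the background correction: it was 1.53 without one and 1.44 with the authors' log2 values, where H4c8 had 1.93 and 1.98. H2bc4 had the lowest change of the class. It read 11.65 and 11.36 untreated, 11.65 and 11.62 with ADR, 11.74 and 11.63 with BMP2, and 12.53 and 12.51 with both, a rise of 0.83 ± 0.11 (adjusted p = 0.0014). The other 9 H2B genes rose by 0.87 to 1.13. All of them had both arrays with both agents above both arrays with BMP2. How often this held over all genes and probes was not counted.

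All 4 H3 genes rose, by 0.58 to 0.96. H3c11 read 8.09 and 7.95 untreated, 7.68 and 7.74 with ADR, 8.61 and 8.71 with BMP2, and 9.74 and 9.49 with both, and rose by 0.96 ± 0.12 (adjusted p = 0.0012). H3c2 read 10.20 and 10.03 untreated, 10.17 and 9.94 with ADR, 10.34 and 10.27 with BMP2, and 10.99 and 10.78 with both, and rose by 0.58 ± 0.099 (adjusted p = 0.0041). In both genes the arrays with both agents stood above the other 6. The linker gene H1f2, which encodes H1.2, had a different order. It read 11.92 and 11.80 untreated, 12.13 and 12.12 with ADR, 11.08 and 11.10 with BMP2, and 12.22 and 12.24 with both. Its rise of 1.14 ± 0.098 on BMP2 (adjusted p = 0.0003) therefore started from a level that was lower than without any agent.

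Within H2A, the genes H2ac10, H2ac12, H2ac13, H2ac20, H2ac22 and H2ac23 fell with ADR added to BMP2, and H2ac4, H2ac6, H2ac8, H2ac18 and H2ac19 rose. This division was noticed after the values were seen, and it gets no test of its own. H2ac22 read 12.78 and 12.73 untreated, 12.63 and 12.55 with ADR, 11.80 and 11.74 with BMP2, and 10.78 and 10.36 with both. It fell by 1.20 on the log2 scale (SE 0.12, adjusted p = 0.00051), and the sides did not overlap. H2ac23 read 13.12 and 13.08 untreated, 12.94 and 12.86 with ADR, 12.24 and 12.19 with BMP2, and 11.23 and 11.09 with both, a change of -1.05 ± 0.096 (adjusted p = 0.00035). H2ac10, H2ac12 and H2ac13 had changes of -1.09, -1.11 and -0.97, and H2ac20 of -0.34 ± 0.097 (adjusted p = 0.029). The 5 that rose did so by 0.69 to 1.05. The mean of the 6 that fell lay at 12.44 and 12.45 on the untreated arrays, 12.29 and 12.26 with ADR, 11.58 and 11.58 with BMP2, and 10.68 and 10.55 with both, while the mean of the other 5 went from 6.45 and 6.43 to 8.27 and 8.22.

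H2A and H2B genes often lie head to head and share the stretch between their start sites. The probes of some such pairs moved in opposite directions here. In RefSeq promoter windows (GRCm38.p6, 250 bases before to 50 after each start), 33 of the 36 members had a window, and 4 pairs of members had starts facing away from each other at 178 to 240 bases. In 3 of them the H2A gene fell and the H2B gene rose with ADR added to BMP2: H2ac22 by -1.20 and H2bc22 by 0.98, H2ac12 by -1.11 and H2bc12 by 1.13, and H2ac13 by -0.97 and H2bc13 by 1.06. In the fourth, H2ac8 and H2bc8 both rose, by 0.69 and 0.88. H2ac22, H2ac12 and H2ac13 belong to the 6 H2A genes that fell, whose mean log2 levels over all arrays were 10.9 to 12.9. The other H2A genes, H2ac8 among them, had 5.4 to 7.6. At 16 h against 8 h on the arrays labelled primary, the 6 had changes of -1.21 to -1.08. Whether the H2A signals of the 3 pairs are separate was not tested, so these pairs cannot be counted as independent results. The stretches between the starts are all on chromosome 13, upstream of both genes: chr13:21787249-21787487 (H2ac22 and H2bc22, plus strand), chr13:22035644-22035820 (H2ac12 and H2bc12, plus strand), chr13:21716184-21716411 (H2ac13 and H2bc13, minus strand) and chr13:23571221-23571399 (H2ac8 and H2bc8, plus strand). They are shown because each holds the sequence that 2 genes share, read towards the H2B gene, with capitals for the CCAAT box, the TATA box motif TATAA, the octamer ATTTGCAT and the E2F site TTTCGCGC on either strand, overlapping matches included.
H2ac22 and H2bc22: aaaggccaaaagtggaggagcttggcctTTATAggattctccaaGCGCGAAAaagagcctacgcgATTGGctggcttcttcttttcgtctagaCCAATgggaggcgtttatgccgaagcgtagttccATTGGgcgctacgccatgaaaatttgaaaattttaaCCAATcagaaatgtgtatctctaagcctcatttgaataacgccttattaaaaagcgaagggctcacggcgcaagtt
H2ac12 and H2bc12: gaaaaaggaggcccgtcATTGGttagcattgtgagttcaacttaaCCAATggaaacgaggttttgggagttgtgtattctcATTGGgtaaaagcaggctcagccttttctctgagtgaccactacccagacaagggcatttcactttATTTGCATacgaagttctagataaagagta
H2ac13 and H2bc13: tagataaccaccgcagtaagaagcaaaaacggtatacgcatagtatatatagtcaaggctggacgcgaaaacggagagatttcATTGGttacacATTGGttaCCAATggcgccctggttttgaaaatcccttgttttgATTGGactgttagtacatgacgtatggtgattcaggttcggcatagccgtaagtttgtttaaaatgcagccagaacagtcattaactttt
H2ac8 and H2bc8: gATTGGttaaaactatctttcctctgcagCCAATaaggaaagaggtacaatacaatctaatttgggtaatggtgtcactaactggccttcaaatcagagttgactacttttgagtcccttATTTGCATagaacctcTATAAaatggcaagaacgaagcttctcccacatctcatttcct
The H2ac22 and H2bc22 stretch holds 4 CCAAT matches, 1 TATAA and 1 E2F match, and the H2ac12 and H2bc12 stretch 3 CCAAT matches and 1 octamer. The windows of H2ac12 and H2bc12 also hold an E2F match that spans the H2ac12 start, so the end of that stretch cuts it. The H2ac13 and H2bc13 stretch holds 4 CCAAT matches, and the H2ac8 and H2bc8 stretch 2 CCAAT matches, 1 TATAA and 1 octamer. A match describes these letters and is no evidence of binding.

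**Figure D2:**
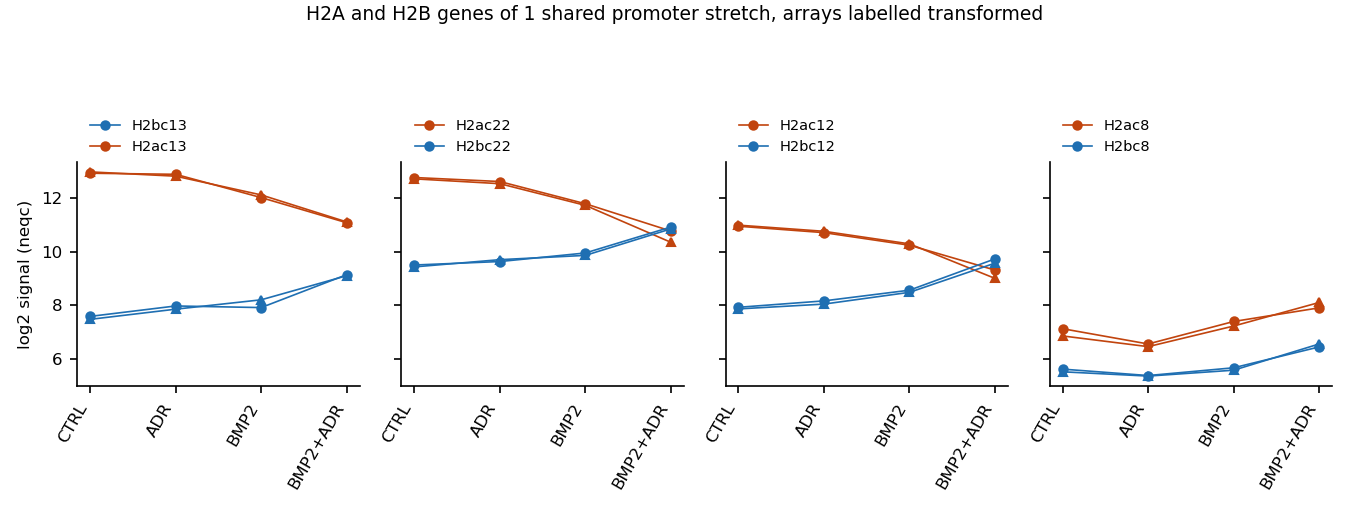
Log2 signal of the H2A gene (orange) and the H2B gene (blue) of each of the 4 head-to-head pairs on the 8 arrays labelled transformed, with circles for Smad1f/f, triangles for Smad1-/- and 1 array a point. From BMP2 to both agents the H2A line falls and the H2B line rises in 3 pairs, and both lines rise in the pair of H2ac8 and H2bc8; heights of different probes are not comparable.

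Over all 34 member windows, CCAAT, bound by NF-Y, was found on either strand in 82.4%, against 37.4% of 32851 windows of the same length. TATAA was found in 79.4% against 24.9%, the octamer in 23.5% against 1.74%, and the E2F site in 20.6% against 0.32%. These windows are not all separate. H2bc6 has 2 of them, and the windows of a head-to-head pair overlap, so a match in shared sequence can count for both genes. GGTCCG, the core of the H4 promoter element bound by HINFP, was found in 7 of 8 H4 windows against 8.25% of all windows. CCAAT was found in every H1, H2A, H2B and H3 window and in 2 of 8 H4 windows. The 250 bases before the start are shown for the linker gene, for H2ac6, whose response to BMP2 is described below, and for H4c9, an H4 gene that rose and has GGTCCG before its start, with the same capitals and GGTCCG added. They lie at chr13:23738557-23738806 (H1f2, plus strand), chr13:23683960-23684209 (H2ac6, minus strand) and chr13:22041363-22041612 (H4c9, minus strand).
H1f2: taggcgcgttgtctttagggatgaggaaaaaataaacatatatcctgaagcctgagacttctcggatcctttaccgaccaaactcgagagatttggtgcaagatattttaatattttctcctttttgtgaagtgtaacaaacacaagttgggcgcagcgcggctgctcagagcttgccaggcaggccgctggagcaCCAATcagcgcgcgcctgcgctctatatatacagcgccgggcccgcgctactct
H2ac6: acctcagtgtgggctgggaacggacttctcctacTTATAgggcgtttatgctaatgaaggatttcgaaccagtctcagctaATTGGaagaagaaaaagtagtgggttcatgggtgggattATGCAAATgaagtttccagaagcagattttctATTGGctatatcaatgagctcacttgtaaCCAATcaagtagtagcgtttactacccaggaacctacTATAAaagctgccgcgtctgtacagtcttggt
H4c9: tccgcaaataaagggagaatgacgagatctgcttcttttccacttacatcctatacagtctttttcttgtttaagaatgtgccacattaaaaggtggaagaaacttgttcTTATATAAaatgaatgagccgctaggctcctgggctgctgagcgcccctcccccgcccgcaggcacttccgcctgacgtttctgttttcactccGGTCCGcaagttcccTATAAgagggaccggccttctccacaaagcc
The H1f2 stretch holds 1 CCAAT match and no exact TATAA, the H2ac6 stretch 3 CCAAT matches, 2 TATAA and 1 octamer, and the H4c9 stretch 1 GGTCCG, 3 TATAA and no CCAAT.

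Without BMP2, no member passed with ADR. In ADR at 12 h against untreated at 0 h, where agent and time cannot be told apart, 0 of 35 members passed in limma. An unadjusted p under 0.05 was found for 9 of 35 members and 1841 of 10275 genes and probes, and 0.526% of all genes and probes passed (0.321% higher, 0.204% lower), so the members' count lay near the background. The members' median change was 0.0065, and H4c8 had the highest, at 0.50 ± 0.097 (adjusted p = 0.077). Between 0 and 2 members passed over the alternatives. The difference between the response to ADR with and without BMP2 was tested as an interaction: 27 of 35 members had a higher and 5 a lower response with BMP2, against 9.59% and 8.32% of all genes and probes (17.9% either way). The untreated arrays were taken at 0 h and the others at 12 h, so the response without BMP2 spans 12 h of time and the response with BMP2 does not, and time and the interaction cannot be told apart. Without the recovered array these counts were 22 and 4. The interaction was 1.64 ± 0.14 for H4c8 (adjusted p = 0.00081) and -1.03 ± 0.17 for H2ac22 (adjusted p = 0.0091). With median scaling, which moved the median interaction of all genes and probes to 0.20, the counts were 28 and 5, and the share of higher calls among all calls went from 53.5% to 86.7%.

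**Figure D3:**
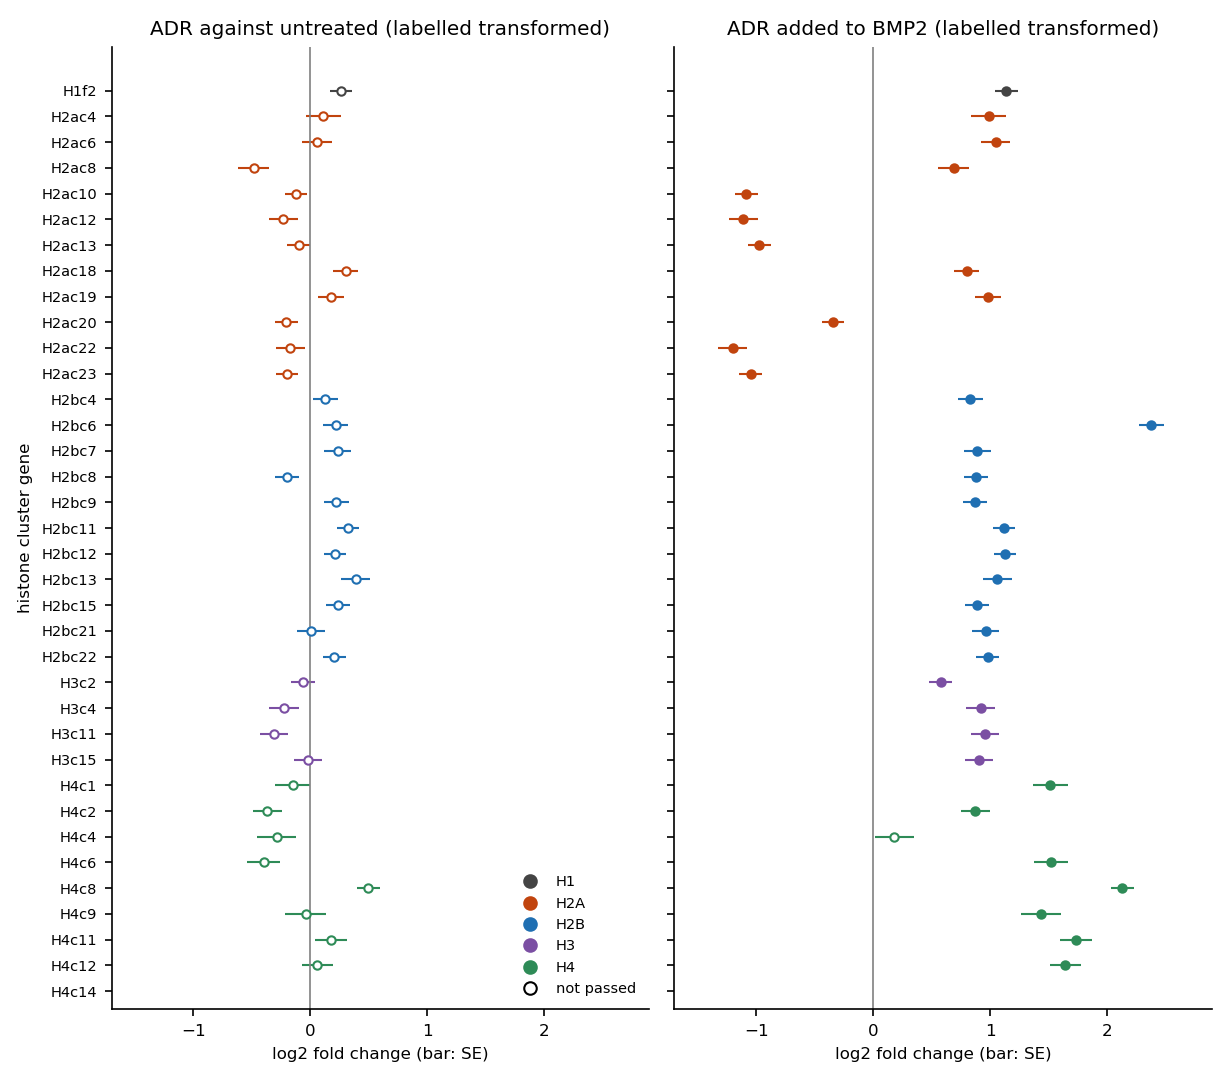
Log2 fold change (x axis, bar: SE of the limma fit) of each member on the arrays labelled transformed, for ADR against untreated (left) and ADR added to BMP2 (right), coloured by class, with filled points for members that passed and open points for those that did not; H4c14 was not tested. All points are open on the left, and on the right 28 filled points lie above 0 and 6 H2A points below it.

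Other genes moved with this response, and their part in it was not tested. Of 25 tested S phase replication genes, 22 fell with ADR added to BMP2 and 0 rose, with a median of -1.08. Tk1, which makes thymidine phosphate, fell by 2.21 on the log2 scale, and Mcm2, a subunit of the replicative helicase, fell by 2.04. The mean of the S phase genes was 8.86 and 8.84 with BMP2 and 7.72 and 7.80 with both agents. Among 15 histone chaperones and assembly factors, 10 fell and 0 rose, with Chaf1a at -1.34, Nasp at -1.29 and Hat1 at -1.11. Nasp holds soluble histones H3 and H4, Chaf1a is the large subunit of the assembly factor CAF-1, and Hat1 acetylates new H4. Of 11 genes for transcription and processing of histone mRNA, 2 rose and 5 fell, with Srrt at -1.20, Upf1, which acts in decay of histone mRNA, at -0.82, and Ncbp1, a subunit of the cap-binding complex, at -0.78. Of 5 replacement histone genes outside the clusters, H2aj rose by 0.51 while Macroh2a1, H2ax and Cenpa had changes of -0.56, -0.53 and -0.49. Mdm2 and Cdkn1a rose by 0.95 and 0.65.

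Markers of other cell types also moved. Of 5 tested epithelial markers of 10 listed, 4 rose and 1 fell, with Krt7 and St14 both at 2.51, and the mean of the 5 went from 5.96 and 5.83 with BMP2 to 7.38 and 7.08 with both agents. Of 2 tested endothelial markers, Mmrn2 rose by 2.74 and Sox18 fell by 0.78. Of 3 macrophage markers, Cd14 rose by 0.84. Of 10 fibroblast markers, 1 rose and 1 fell, with a mean of 11.19 on both arrays with BMP2 and of 11.02 and 11.08 with both agents. Their part in the histone changes was not tested, and in bulk RNA fewer cells of a type and less RNA per cell cannot be told apart.

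BMP2 alone at 12 h, against untreated at 0 h, moved most members too, and time and agent cannot be told apart in it. In limma 20 of 35 members rose and 7 fell, against 22.7% and 23.8% of all genes and probes (46.5% either way), with a median of 0.45. The 7 were H1f2 at -0.77 ± 0.098 and the 6 H2A genes named above, at -0.70 to -0.99. Of the H4 genes 6 of 8 rose, among them H4c8 by 0.86 ± 0.097 and H4c1 by 0.82 ± 0.15, and of the H2B genes 8 of 11. H2bc4 and H3c2 had changes of 0.18 ± 0.11 and 0.19 ± 0.099 and did not pass. With median scaling, which moved the median of all genes and probes to -0.19, 9 members rose and 7 fell, and the share of higher calls among all calls went from 48.7% to 27.8%. At a log2 change of at least 1, 1 member remained.

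It was H2ac6. It was not detected without BMP2, at 4.72 and 4.74 untreated and 4.64 and 4.93 with ADR, and read 7.32 and 7.25 with BMP2 and 8.18 and 8.48 with both agents. Against the lowest detected signal of the untreated arrays it was at least 4.18-fold higher with BMP2, and at least 8.71-fold higher when BMP2 was added to ADR. It was detected on 4 arrays, all with BMP2, and so entered the set and the fit only through the side where it is high. Its values are therefore a description with no test, and the counts that include it hold it on that condition. On the 8 arrays labelled primary it was detected on none, at 4.53 to 4.70, with or without BMP2. With BMP2 added to ADR, 28 of 35 members rose and 6 fell, against 25.9% and 31.2% of all genes and probes (57.2% either way). This comparison shares its arrays with those above. Its values included 2.50 ± 0.097 for H4c8, 2.49 ± 0.15 for H4c1, 2.46 ± 0.11 for H2bc6 and -2.02 ± 0.12 for H2ac22, while H1f2 had 0.11 ± 0.098.

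No member passed between the genotypes. Between Smad1-/- and Smad1f/f, with 4 arrays on each side, 0 of 35 members passed in limma, 1 had an unadjusted p under 0.05 (1027 of all 10275 genes and probes), and 0% of all genes and probes passed. The members' count stayed at 0 under each alternative run, while over all genes and probes 25 passed in the joint fit of 16 arrays, 10 with the authors' log2 values and 5 with the robust trend. The members' changes ran from -0.17 to 0.15. H2ac22 had -0.15 ± 0.087, and H2bc6 -0.091 ± 0.075. Smad1 signal itself did not follow the genotype label, and which part of the transcript its probe reads was not analysed here. These values therefore compare the labels.

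On the 8 arrays labelled primary, the linker gene and most H2B genes were higher with BMP2 at both times. With 4 arrays on each side, 16 of 32 tested members rose and 0 fell in limma, against 10.3% and 9.82% of all genes and probes (20.1% either way), with a median of 0.27 beside -0.027. The 16 were H1f2, 8 of 10 H2B genes, 3 H4 genes, 2 H3 genes and 2 H2A genes. H1f2 read 10.11 untreated, 9.77 with ADR, 11.41 with BMP2 and 11.42 with both at 8 h, and 7.35, 7.06, 9.68 and 9.45 in the same order at 16 h. Within each time the arrays with BMP2 lay above those without, and the rise was 1.92 ± 0.18 (adjusted p = 0.00051). H2bc4 read 10.39, 10.07, 11.55 and 11.48 at 8 h and 7.78, 7.43, 9.58 and 9.36 at 16 h, and rose by 1.57 ± 0.13 (adjusted p = 0.00026). H2bc11, H2bc13, H2bc22 and H2bc15 rose by 1.27, 1.21, 1.15 and 1.01.

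The other classes moved less there. H4c1, H4c6 and H4c9 rose by 0.67, 0.59 and 0.56, while H4c8, which led the class on the other set, had -0.19 ± 0.078 (adjusted p = 0.13), from 5.75 to 6.13 without BMP2 and from 5.69 to 5.98 with it. H3c4 and H3c11 rose by 0.37 and 0.33. Of the H2A genes, H2ac19 and H2ac18 rose by 0.77 and 0.50, and none of the 6 that fell on the other set passed, with changes of -0.20 to -0.041. H2bc6, H2ac6, H2ac4 and H4c2 were not detected on 2 of these arrays and were not tested. The head-to-head pairs are given side by side, with no test of the difference within a pair: H2bc22 rose by 1.15 where H2ac22 had -0.20, H2bc13 by 1.21 where H2ac13 had -0.069, and H2bc12 by 0.61 where H2ac12 had -0.041. In the fourth pair H2bc8 had 0.18 and H2ac8 0.20, and neither passed. Whether the signals of H2ac22, H2ac13 and H2ac12 are separate was not tested here either. Of the 16 members that rose here, 14 were among the 20 of 35 that rose with BMP2 on the other set (87.5% of the 16). That list too holds most members. All 16 were among the 28 of 35 that rose there with ADR added to BMP2 (57.1% of the 28), a list that holds most members. At a log2 change of at least 1, 6 members remained, and leaving out each array in turn gave 13 to 14.

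**Figure D4:**
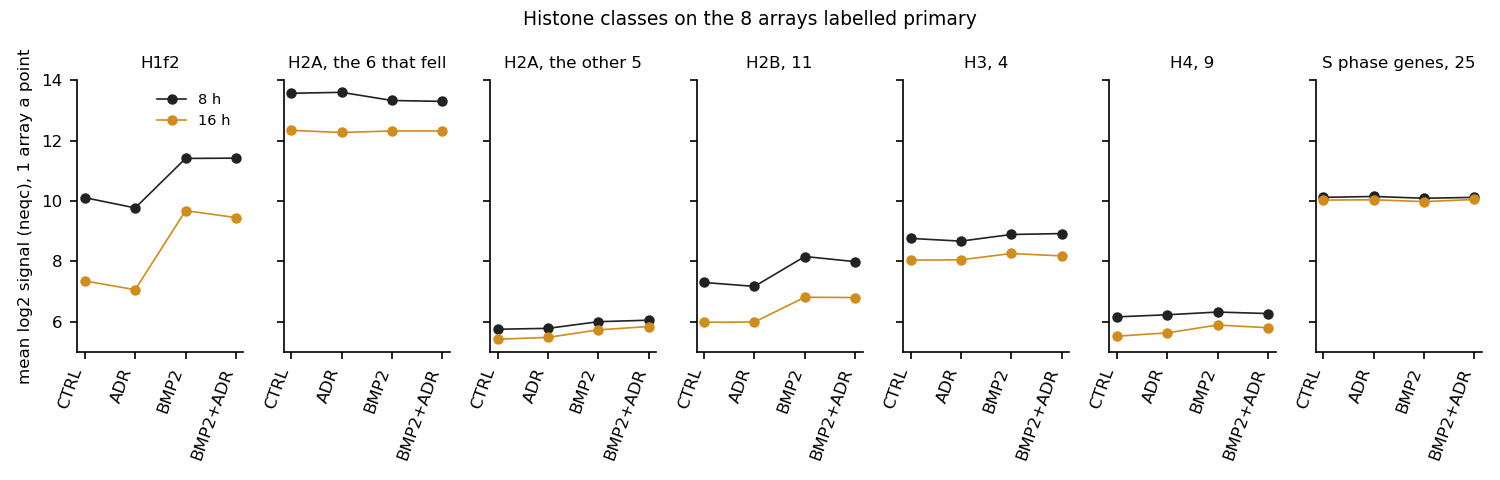
Mean log2 signal (y axis) of each histone class and of the S phase replication genes on the 8 arrays labelled primary, by agent (x axis), with 8 h in black and 16 h in orange and 1 array a point; the H2A genes are divided by their direction on the other set. Within each time H1f2 and H2B stand higher on the arrays with BMP2, every histone panel is lower at 16 h, and the S phase genes lie between 9.98 and 10.15 on all 8 arrays.

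Cdkn1a, Mdm2 and Smad1 rose with the same label, the last by 0.62 ± 0.083, and their part in the histone rise was not tested. The S phase replication genes had 1 higher and 2 lower of 25, with Ccne1 at 0.69 and Dut at -0.69. Of 15 chaperones 2 rose and 2 fell, with Ipo4, an importin for histones, at 0.74 and Hira, the chaperone of H3.3, at -0.52. Eri1, an exonuclease that trims the histone stem-loop, had -0.76 ± 0.077 and was the 1 of 13 transcription and processing genes that passed.

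Most members were lower at the later time on these arrays. At 16 h against 8 h, 27 of 32 members fell and 0 rose in limma, where 29.4% of all genes and probes passed, 1601 lower and 1177 higher, with a median of -1.06 beside -0.047. H4c14 is among the 27 and was detected at 8 h only. It entered the fit through the side where it is high, so its fall is a description with no test. H2bc4 fell by 2.33 on the log2 scale (SE 0.13, adjusted p = 0.0004), the lowest change of all 9433 genes and probes tested, and H1f2 by 2.29. H2bc22, H2bc11 and H2bc9 had changes of -1.83, -1.62 and -1.57. All 6 H2A genes that fell on the other set were lower here too, within a narrow range of -1.08 to -1.21. H2ac22 read 13.88, 13.52, 13.83 and 13.51 at 8 h and 12.69, 12.62, 12.60 and 12.55 at 16 h, with no overlap. H2ac18, H2ac19, H4c4, H4c8 and H4c12 did not pass, with changes of -0.21 to 0.069. Of the 25 S phase genes 1 rose and 5 fell, with a median of -0.12, and Cdkn1a rose by 1.13. At a log2 change of at least 1, 17 members remained, and with median scaling 26 fell and 0 rose while the share of higher calls among all calls went from 42.4% to 77.0%.

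No member passed with ADR on these arrays: 0 of 32 passed in limma, 4 had an unadjusted p under 0.05 (860 of 9433 genes and probes), and 0.297% of all genes and probes passed (0.244% higher, 0.0530% lower), so this count lay near the background. The members' median change was -0.046, and H1f2 had -0.21 ± 0.18, higher with ADR in 1 of 4 pairs. The interaction of ADR and BMP2 passed for 0 of 32 members, 2 of them with an unadjusted p under 0.05 (573 of 9433 genes and probes), and for 0% of all genes and probes.

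The response to ADR added to BMP2 was compared between the sets in 1 fit of all 16 arrays. It was higher on the arrays labelled transformed for 28 of 36 members and lower for 5, against 10.7% and 9.61% of all genes and probes (20.3% either way), and without the recovered array for 24 and 5. The 28 include H2ac4, H2ac6 and H2bc6, detected on no array labelled primary. They entered this fit only through the other set, and their response on the arrays labelled primary compares signals not above background. The difference was 2.20 ± 0.14 for H4c8 and -1.16 ± 0.17 for H2ac22. With ADR and BMP2 as separate terms, so that the response to ADR was averaged over arrays with and without BMP2, 0 members passed. Few features passed at all in that fit, 106 of all 10982 genes and probes against 2234 in the main fit. It has no term for the interaction of ADR and BMP2 and so tests another contrast. With median scaling the share of higher calls among all calls went from 52.8% to 67.6%.

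Levels also differed between the sets, where set, time and label cannot be told apart. Against the mean of the arrays labelled primary, the Smad1f/f arrays were higher for 27 of 36 members and lower for 7, and 34.1% of all genes and probes were higher and 43.8% lower (77.9% either way), so most features differed. The higher calls include H2ac4, H2ac6 and H2bc6, detected on no array labelled primary, and the lower calls H4c14, detected on none labelled transformed. These genes entered the fit only through the side where they are high, so their direction is a description with no test. H4c8, H1f2 and H2bc4 were higher by 2.38 ± 0.060, 2.30 ± 0.13 and 2.19 ± 0.096. The 6 H2A genes that fell above were all lower, with differences of -0.89 to -1.26, and so were all 25 S phase genes, with a median of -1.60. H3c2 had -0.030 ± 0.056 (adjusted p = 0.63).

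The genes most like the 28 rising members were ranked by Pearson correlation over the 16 arrays with the mean of those members, after each set was centred on its own mean. Stx3, a syntaxin of membrane fusion, had r = 0.957, followed by C1qtnf12 at 0.933, Castor1, an arginine sensor of mTORC1, at 0.923, and Polr1e, a subunit of RNA polymerase I, at 0.921. Fggy, an unnamed probe, Itpk1, Lrpap1, Elovl4 and Akr7a5 followed at 0.916 to 0.890. These arrays share treatments, so the values describe likeness over these conditions only.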

How the data were processed

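Total RNA was labelled with Cy3 and hybridised to Illumina BeadChips, and signals were exported with GenomeStudio 2011.1, per the submitters' processing notes. The deposited signals are bead intensity values on a linear scale, neither background corrected nor normalized. The deposited detection p-value columns hold 1 minus p and were turned round. The authors also deposited log2 values, centred on each probe's median over the arrays and so without levels, which served as an alternative. No other sample columns were found, and the genome build is not given in the sources used here.

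The signal column of the Smad1-/- BMP2 array repeated another array in 100% of probes and fitted its own detection values less well (Spearman 0.950 across probes, against 0.989 for the array it repeats). It was recovered from the log2 values, and 99.93% of recovered signals lay within 0.01 of a 0.1 step and had a Spearman correlation of 0.992 with its own detection values. The same steps returned 100% of the signals of the other 15 arrays.

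Signals were normalized with limma's neqc (offset 16, limma 3.58.1, R 4.3.3). A probe entered a fit if its detection p was under 0.05 on 2 or more of the fit's arrays, and a gene was read from its brightest probe. The platform table gave 1 gene for 20984 of 24613 probes, several for 1 and none for 3628. Contrasts of additive lmFit and eBayes fits (genotype and agent, or time and agent, 3 residual degrees of freedom each) took their spread from departures from additivity, because no condition was repeated, and Benjamini-Hochberg adjustment ran over all genes and probes. The p-values therefore measure only that spread, which may be technical. Fits were tested on simulated data. Members and gene lists were chosen with earlier results of these data known. Members given array by array were, per class, those with the highest and the lowest change with ADR added to BMP2 and the brightest. From each list, the 2 to 4 genes with the highest absolute change that passed were named by that change. The 10 genes most like the rising members were named by their correlation. The background correction, scaling, detection filter, choice of probe, variance trend and model terms were varied in turn, the authors' values were used in place of the signals, a log2 change of at least 1 was required, and each array was omitted once. The files name no slide, so no block for it was fitted. Promoter windows are from RefSeq (GRCm38.p6). Figures were drawn with Python 3.11.15.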

Additional observations from a re-analysis of the deposited data

Results flagged for a closer look

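Tests of a difference between conditions picked out the response of the histone cluster genes to ADR. On the arrays labelled transformed, the interaction of ADR and BMP2 passed for 32 of 35 members, where 17.9% of all genes and probes passed, and it cannot be told apart from the 12 h between the untreated and the treated arrays. It was 0.88 for H1f2, 0.99 for H2ac6, 0.70 for H2bc4, 2.16 for H2bc6, 1.27 for H3c11, 0.64 for H3c2, 1.66 for H4c1 and 1.64 for H4c8 on the log2 scale, and it was -1.03 for H2ac22 and -0.85 for H2ac23.

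The response to ADR added to BMP2 differed between the arrays labelled transformed and those labelled primary for 33 of 36 members, where 20.3% of all genes and probes passed. With ADR and BMP2 as separate terms, 0 members and 106 of all 10982 genes and probes passed. The difference was 1.24 for H1f2, 1.09 for H2ac6, 0.97 for H2bc4, 2.33 for H2bc6, 0.87 for H3c11, 0.42 for H3c2, 1.48 for H4c1 and 2.20 for H4c8, and it was -1.16 for H2ac22 and -1.04 for H2ac23. Both tests use the same arrays with both agents, and H2ac6, H2bc6 and H2ac4, which is in the count, were not detected on the arrays labelled primary. In the set labelled transformed, H2ac6 was not detected without BMP2 and H2bc6 not on the untreated arrays, so their values here are set against signals not above background and are no measured sizes.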

How the results depend on the processing

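No paired analysis was possible because every array has the replicate number 1, so that the number cannot serve as a block; genotype or time, which match the arrays of a set, already enter each set's fit as a term. For ADR against untreated (labelled transformed), 0 members passed, against 1 without background correction, 2 with the authors' log2 values, 1 with a robust variance trend and 1 with 1 fit of all 16 arrays. At a log2 change of at least 1, the members that passed went from 34 to 16 for ADR added to BMP2, from 27 to 1 for BMP2 against untreated, from 32 to 13 for the interaction on the arrays labelled transformed, from 16 to 6 for BMP2 on the arrays labelled primary, from 27 to 17 for 16 h against 8 h, and from 33 to 21 for the difference between the sets. The share of all genes and probes at that size was not counted, so these counts have no background. With separate terms for ADR and BMP2, the difference between the sets passed for 0 members and for 106 of all 10982 genes and probes. Median scaling left 16 for BMP2 against untreated, and it moved the share of higher calls for ADR against untreated from 61.1% to 22.4%. The cause was not tested. With ADR added to BMP2, H4c4 ran from -0.083 without the Smad1-/- BMP2 array to 0.44 without the Smad1f/f BMP2 array. Leaving out each array in turn gave 33 to 34 members for ADR added to BMP2, 33 to 34 for BMP2 added to ADR, 22 to 27 for BMP2 against untreated, 22 to 26 for the interaction, 13 to 14 for BMP2 and 25 to 26 for time on the arrays labelled primary, 26 to 32 for the difference between the sets and 31 to 34 for the level, and 0 for genotype, ADR against untreated, ADR and the interaction on the arrays labelled primary. H4c2, H4c4, H4c12 and H4c14 were detected on 6, 12, 10 and 2 of 16 arrays, so their values lie near the background.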

Other observations

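H2ax, the replacement H2A gene whose product is phosphorylated at DNA breaks, lies outside the clusters. On the arrays labelled primary it rose by 0.56 ± 0.083 with BMP2 (limma adjusted p = 0.0038) and changed by -0.81 ± 0.083 from 8 h to 16 h (adjusted p = 0.001), the directions of H1f2 and most H2B genes there. On the arrays labelled transformed it changed by -1.10 ± 0.10 with BMP2 (adjusted p = 0.00013), the direction of H1f2 and the 6 H2A genes that fell. H2aj, a further replacement H2A gene, rose there by 0.99 ± 0.10.

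Second probes were detected for 6 of the members. The second probe of H3c15 was detected on no array, and no H2A gene had a second probe. With ADR added to BMP2 the 6 detected second probes gave 1.15 for H2bc4, 0.51 for H2bc21, 0.95 for H2bc7, 1.13 for H3c11, 0.86 for H3c2 and 1.69 for H4c9. All were in the direction of the first probe.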
